A study of Mus musculus with 23 samples.

Results

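A set of 6 genes of the epidermal growth factor (EGF) system was measured in brown adipose tissue (BAT) of control mice and of mice that lack the mitochondrial calcium uniporter Mcu in brown adipocytes, at room temperature (RT) and after cold exposure. They are the ligands Btc, Nrg4 and Hbegf and the receptors Egfr, Erbb2 and Erbb4, found by symbol among the 14651 genes of the deposited table, which holds all 6 of them. The set was chosen by its ligand Btc, selected on the measured difference of its normalized counts between the genotypes at 4°C in these same samples. The values of Btc at 4°C are therefore given here as a description, without a test, and Btc was tested only between the genotypes at RT.

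ERBB receptors are tyrosine kinases that pair when a ligand of the EGF family binds. EGFR binds betacellulin (the product of Btc) and the heparin-binding ligand encoded by Hbegf, and ERBB4 binds both of these and neuregulin 4, the product of Nrg4. ERBB2 has no known ligand of its own and serves as a partner of the others, while ERBB3 binds neuregulins and has a weak kinase. Ligands are made as membrane proteins and released by ADAM proteases, active receptors signal through RAS and ERK and through PI3K and AKT, and genes switched on by ERK feed back on the pathway. Nrg4 is known as a factor that brown fat secretes.

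The 4 groups were control mice at RT (n = 6), control mice at 4°C (n = 5), BAT-Mcu-KO animals at RT (n = 6) and BAT-Mcu-KO animals at 4°C (n = 6), all male C57BL/6 mice of 8 to 12 weeks. Control mice had the genotype Mcu[fl/fl], with loxP sites around exon 2 of Mcu. BAT-Mcu-KO animals carried the same floxed alleles and the Ucp1-Cre transgene, which control mice lacked. No group carried the transgene without the floxed alleles. For genes other than Mcu, a difference by loss of Mcu therefore cannot be told apart from one by the transgene, in any genotype comparison here. The Ucp1 promoter restricts Cre to thermogenic adipocytes, so other cells of the tissue keep Mcu. The mice at 4°C were housed singly for 6 h without food or bedding. For the sequenced mice at RT, food and housing over those hours are not stated. If these differed, a difference by cold cannot be told apart from one by food or housing, and this holds for every cold comparison here.

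Each library held 7129271 to 21006347 reads on the 14651 genes (median 13602248). Mcu, the targeted gene, counted over all its exons and not over the deleted exon 2 alone, was lower in every BAT-Mcu-KO animal than in every control mouse at the same temperature, with a log2 fold change of -1.66 at RT (limma, SE 0.22, adjusted p = 0.0010) and -1.61 at 4°C (limma, SE 0.23, adjusted p = 0.0037). The brown adipocyte markers Ucp1, Cidea, Prdm16, Adipoq, Plin1 and Dio2 had reads in every mouse. The summed normalized count of 6 skeletal muscle markers ranged from 6.22 to 42180.4 and exceeded 20000 in 5 mice, control mice 2 and 5 at 4°C and BAT-Mcu-KO mice 3, 4 and 6 at RT. These 5 mice are called below the 5 mice with muscle transcripts. Other mice had such transcripts too, with a sum of up to 9794 in control mouse 4 at 4°C. Where leaving out the 5 mice changed a call of a member, the value without them is given. For other named genes no such value is given, and their calls may change without them. Leaving them out also shrinks the groups of control mice at 4°C and BAT-Mcu-KO animals at RT, which by itself can lose a call.

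In GRCm38 (GENCODE M21) Btc lies on chromosome 5 from 91357261 to 91402994 on the minus strand and Nrg4 on chromosome 9 from 55220222 to 55326844 (minus). Egfr lies on chromosome 11 from 16752203 to 16918158 (plus), Erbb2 on chromosome 11 from 98412470 to 98437716 (plus), and Erbb4 on chromosome 1 from 68032186 to 69108059 (minus), while the position of Hbegf is given with its values. Reads were counted irrespective of strand. Of the exons of Nrg4, 368 bp or 6.06% are shared with Fbxo22, which runs on the opposite strand, and 177 bp with the pseudogene Gm15625. Reads from those stretches cannot be given to a gene by strand. Erbb2 shares 9 bp of exon with Mien1, and the exons of the other 4 genes are not shared.

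The promoters of 4 members are shown, those of Btc, for which the set was made, of Egfr and Erbb4, whose calls by cold held under each alternative tried, and of Nrg4, the member with the highest level. Each sequence holds the 250 bases before the start site in RefSeq (GRCm38.p6), read 5′ to 3′ in the direction of the gene. The windows are chr5:91402995-91403244 for Btc (minus strand), chr9:55283626-55283875 for Nrg4 (minus), chr11:16751953-16752202 for Egfr (plus) and chr1:69108060-69108309 for Erbb4 (minus). None of these 4 windows overlaps an annotated exon, and that of Nrg4 lies inside the longer GENCODE gene. Capitals mark matches, on either strand, to 5 motifs: the cyclic AMP response element TGACGTCA, its shorter core TGACG (which the full element contains), the core of C/EBP-ATF elements TGATGNAA, the nuclear receptor site TGACCT and the GC box GGGCGG.
Btc: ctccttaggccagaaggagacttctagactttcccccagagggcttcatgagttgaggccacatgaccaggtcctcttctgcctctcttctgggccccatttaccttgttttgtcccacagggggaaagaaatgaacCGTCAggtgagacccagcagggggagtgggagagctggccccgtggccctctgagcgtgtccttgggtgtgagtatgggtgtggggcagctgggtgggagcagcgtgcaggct
Nrg4: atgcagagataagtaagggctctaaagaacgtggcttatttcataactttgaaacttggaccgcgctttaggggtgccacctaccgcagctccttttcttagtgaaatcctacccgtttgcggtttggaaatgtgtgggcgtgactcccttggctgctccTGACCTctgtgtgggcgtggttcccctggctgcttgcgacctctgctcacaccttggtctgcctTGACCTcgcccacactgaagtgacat
Egfr: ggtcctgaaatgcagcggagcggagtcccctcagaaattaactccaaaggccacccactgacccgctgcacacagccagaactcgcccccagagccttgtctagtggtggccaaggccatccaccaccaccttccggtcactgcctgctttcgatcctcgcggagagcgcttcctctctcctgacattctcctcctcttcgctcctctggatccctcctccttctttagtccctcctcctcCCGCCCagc
Erbb4: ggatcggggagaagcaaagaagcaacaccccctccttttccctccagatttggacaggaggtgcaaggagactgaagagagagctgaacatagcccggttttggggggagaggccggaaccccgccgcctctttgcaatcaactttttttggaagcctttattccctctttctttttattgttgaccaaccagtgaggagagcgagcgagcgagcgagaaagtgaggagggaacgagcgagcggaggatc
The Btc window held 1 match to TGACG, on the opposite strand with its first base 113 bases before the start, and this motif was in 17.8% of 32851 promoter windows of the same length. The Nrg4 window held 2 matches to TGACCT, at 90 and 26 bases before the start, against 14.0% of windows with at least 1. The Egfr window held 1 GC box 9 bases before the start, against 32.7% of windows, and no motif matched in that of Erbb4. The full element TGACGTCA and TGATGNAA, in 1.55% and 3.45% of windows, matched in none of the 4.

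Levels are given as normalized counts, reads per gene over the size factor of a library. For a comparison between genes they were divided by the exon length of the gene. On this scale Nrg4 had the highest level of the 6 genes in every group, with means of 459 to 524 normalized counts per kb of exon. Btc came next with 48.2 to 111, and its range over mice did not overlap with that of Nrg4 or of the next gene in any group. The 3 receptors had means between 3.06 and 12.5 per kb, and receptors next to each other in that order overlapped in 3 of the groups. In BAT-Mcu-KO animals at 4°C the range of Egfr overlapped that of Erbb2, which at 7.92 per kb stood above Erbb4 without overlap. Erbb4, at 3.06 per kb, was the lowest gene of this group, with a range that overlapped that of Hbegf at 3.31. Hbegf had means of 1.93 to 4.01 per kb and was the lowest in the other groups. Nrg4 was 4.74 times as high as Btc per kb in BAT-Mcu-KO animals at 4°C and 7.98 to 10.4 times as high in the other groups.

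**Figure D1:**
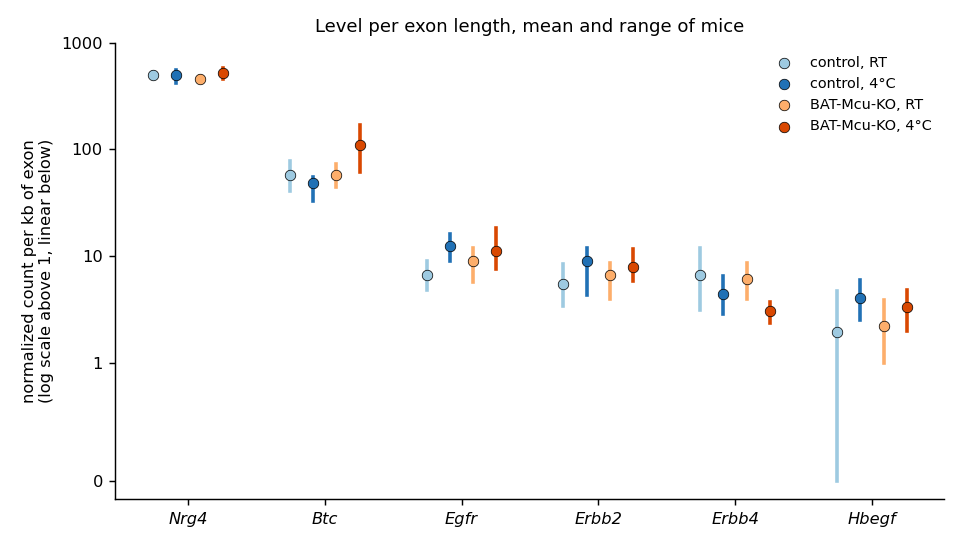
Level of the 6 genes in normalized counts per kb of exon (vertical axis, log scale above 1 and linear below) for each of the 4 groups, with the mean as a point and the lowest and highest mouse as the ends of the line. Nrg4 and Btc stand above the 3 receptors and Hbegf in every group, and the line of Hbegf reaches 0 in control mice at RT.

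Btc, which encodes betacellulin, had group means of 218 to 260.2 normalized counts in 3 of the groups and of 499.9 in BAT-Mcu-KO animals at 4°C. Its normalized count was 185 at the lowest, 255 at the median and 355 at the highest in control mice at RT. In control mice 1 to 5 at 4°C it was 196, 250.4, 251, 243 and 149. It was 199 to 333 (median 257) in BAT-Mcu-KO animals at RT and 279.8 to 761 (median 438) in BAT-Mcu-KO animals at 4°C. All 6 BAT-Mcu-KO animals at 4°C were above all 5 control mice at 4°C, and the spread among them was the widest of the 4 groups, with a mean of 499.9 ± 194 (SD, n = 6) against 218 ± 44.8 (SD, n = 5). These values rest on 97 to 782 reads per mouse.

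By genotype at RT, the only comparison in which Btc was tested, its log2 fold change was -0.0026 (95% interval -0.43 to 0.43, limma with Benjamini-Hochberg adjustment, adjusted p = 1.0). Here the means were 259.9 ± 59.1 (SD, n = 6) in BAT-Mcu-KO animals and 260.2 ± 58.8 (SD, n = 6) in control mice, and the sign of the small difference turned when single mice or the 5 mice with muscle transcripts were left out. At 4°C the log2 fold change by genotype was 1.13 (SE 0.22, 2.19-fold), with 0.99 to 1.28 over 21 alternatives and 1.03 without the 5 mice with muscle transcripts. Over all genes, 0.389% were higher in every BAT-Mcu-KO animal than in every control mouse at 4°C. Because this contrast chose Btc, nothing is read from its size, its SE, its range over the alternatives or that count. Between RT and 4°C the log2 fold change of Btc was -0.25 (SE 0.22) in control mice and 0.88 (SE 0.21) in BAT-Mcu-KO animals, where 5 of 6 mice at 4°C were above every mouse at RT. The difference between these values, the interaction of genotype and temperature, was 1.13 (SE 0.30) on the log2 scale. The cold and interaction values of Btc rest on the same mice at 4°C, so they too are a description and no support for a difference. In bulk tissue a change in the number of cells of a type cannot be told apart from a change of RNA per cell, and this holds for every value here.

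Nrg4, which encodes neuregulin 4, varied little. Its normalized count was 2822 to 3242 (median 3082) among control mice at RT, and 3186, 2545, 3327, 2770.2 and 3348 in control mice 1 to 5 at 4°C. In BAT-Mcu-KO animals it was 2685 to 2987 (median 2754) at RT and 2759 to 3535 (median 3255) at 4°C. The 4 groups overlapped, and in proportion the lowest and highest of the 23 mice differed less than for any other member. By genotype its log2 fold change was -0.13 at RT (95% interval -0.28 to 0.02, limma, adjusted p = 0.951) and 0.07 at 4°C (-0.09 to 0.23, limma, adjusted p = 0.880). By cold it was -0.01 in control mice (limma, SE 0.08, adjusted p = 0.891), and the sign turned when some mice were left out.

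In BAT-Mcu-KO animals Nrg4 rose at 4°C by a log2 fold change of 0.19 (limma, SE 0.07, adjusted p = 0.0403), with 5 of 6 mice at 4°C above every mouse at RT. This call was lost, with an adjusted p of 0.0609 to 0.101, without any of BAT-Mcu-KO mice 1, 3, 4 and 6 at RT (log2 fold change 0.18 to 0.19) or 2, 3, 4 and 5 at 4°C (0.16 to 0.18). It was also lost with each library scaled to its 75th percentile (0.14, adjusted p = 0.133), without a variance trend (0.19, adjusted p = 0.0619) and without the 5 mice with muscle transcripts (0.16, adjusted p = 0.202). The interaction was 0.20 (95% interval -0.02 to 0.42, limma, adjusted p = 0.841), so a difference in the cold response between the genotypes was not shown.

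Hbegf, which encodes heparin-binding EGF-like growth factor, lies on chromosome 18 of GRCm38 from 36504927 to 36515805 on the minus strand. It was near the limit of detection, with 0 to 29 reads per mouse. Its normalized count was 0 to 22.8 (median 8.24) among control mice at RT, and 12.1, 28.8, 19.9, 19.1 and 16.8 in control mice 1 to 5 at 4°C. In BAT-Mcu-KO animals it was 4.83 to 18.8 (median 10.7) at RT and 9.59 to 23.4 (median 16.1) at 4°C. The only mouse at 0 was control mouse 5 at RT, where 0 reads allow a level of up to 3.11 normalized counts, counting error only. All groups overlapped.

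At 4°C Hbegf rose in control mice by a log2 fold change of 1.42 (limma, SE 0.52, adjusted p = 0.0291), from a mean of 9.34 ± 7.64 (SD, n = 6) to 19.4 ± 6.10 (SD, n = 5). Without the mouse at 0 reads the log2 fold change was 0.84 (adjusted p = 0.0745), and the call was also lost without control mouse 2 (1.27, adjusted p = 0.0714) or 3 at 4°C (1.39, adjusted p = 0.0507). It was lost as well without the 5 mice with muscle transcripts (1.26, adjusted p = 0.126), with the compared groups alone (1.42, adjusted p = 0.0728) and with edgeR on the recovered reads (1.04, adjusted p = 0.0746), so that 6 of 20 alternatives lost it. In BAT-Mcu-KO animals the log2 fold change by cold was 0.57 (limma, SE 0.50, adjusted p = 0.378), and the interaction was -0.84 (95% interval -2.33 to 0.65, limma, adjusted p = 0.889). By genotype it was 0.55 at RT (-0.48 to 1.58, limma, adjusted p = 0.993) and -0.29 at 4°C (-1.37 to 0.79, limma, adjusted p = 0.947). Without control mouse 5 the value at RT was -0.03.

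**Figure D2:**
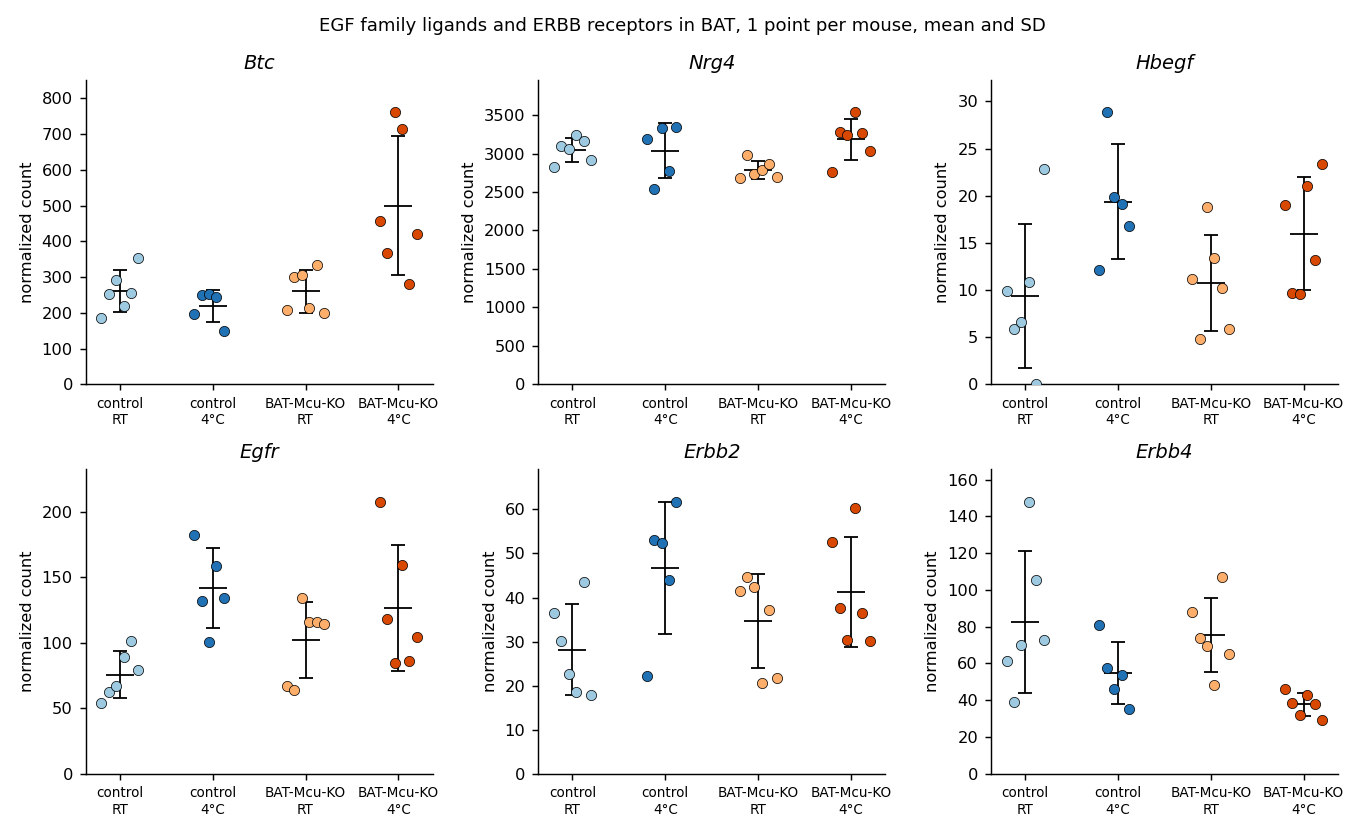
Normalized count (vertical axis, linear from 0) of the 6 genes in each mouse of the 4 groups, with 1 point per mouse and the mean and SD in black. The 6 BAT-Mcu-KO animals at 4°C sit above the 5 control mice at 4°C for Btc, and below the 6 BAT-Mcu-KO animals at RT for Erbb4, while Nrg4 lies between 2545 and 3535 in all 23 mice.

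Egfr encodes the receptor of betacellulin and of the Hbegf product. Its normalized count was 53.9 to 101 (median 73.2) among control mice at RT, and 182, 132, 101, 159 and 134 in control mice 1 to 5 at 4°C. In BAT-Mcu-KO animals it was 63.9 to 134 (median 115) at RT and 84.7 to 208 (median 111) at 4°C. In control mice 4 of 5 at 4°C were above every mouse at RT, and the other mouse was level with the highest at RT.

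At 4°C Egfr rose in control mice from 75.5 ± 17.9 (SD, n = 6) to 141 ± 30.6 (SD, n = 5), a log2 fold change of 0.90 (limma, SE 0.24, adjusted p = 0.0027). The call was kept under each of 21 alternatives, leaving out each mouse in turn among them, with log2 fold changes of 0.79 to 1.02. In BAT-Mcu-KO animals the means were 102 ± 29.1 and 127 ± 48.2 (SD, n = 6 each), a log2 fold change of 0.29 (limma, SE 0.22, adjusted p = 0.320). The interaction was -0.61 (95% interval -1.28 to 0.05, limma, adjusted p = 0.841), and the cold response was therefore not shown to differ between the genotypes. By genotype the log2 fold change was 0.41 at RT (-0.06 to 0.87, limma, adjusted p = 0.945), where 4 of 6 BAT-Mcu-KO animals were above every control mouse, and -0.21 at 4°C (-0.69 to 0.28, limma, adjusted p = 0.883). Of those 4 animals 3 (mice 3, 4 and 6) were among the mice with muscle transcripts. Without the 5 mice with muscle transcripts the log2 fold change of Egfr was 0.10 by genotype at RT (limma, adjusted p = 0.997) and 0.59 by cold in BAT-Mcu-KO animals (limma, adjusted p = 0.115).

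Erbb2, the receptor without a known ligand, had 11 to 80 reads per mouse. Its normalized count was 17.9 to 43.5 (median 26.4) among control mice at RT, and 22.3, 53.1, 52.3, 44.1 and 61.7 in control mice 1 to 5 at 4°C. In BAT-Mcu-KO animals it was 20.6 to 44.6 (median 39.3) at RT and 30.03 to 60.4 (median 37.1) at 4°C. In control mice 4 of 5 at 4°C were above every mouse at RT, and mouse 1 was among the low values.

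Erbb2 rose at 4°C in control mice by a log2 fold change of 0.71 (limma, SE 0.29, adjusted p = 0.0468). The call was lost, with an adjusted p of 0.0525 to 0.125, without any of control mice 2, 3, 4 and 6 at RT or 2, 3, 4 and 5 at 4°C (log2 fold change 0.59 to 0.74). It was lost too with 75th percentile scaling (0.60, adjusted p = 0.0884), with the compared groups alone (0.71, adjusted p = 0.0714), with a replicate block (0.61, adjusted p = 0.0876) and without the 5 mice with muscle transcripts (0.47, adjusted p = 0.262), in all under 12 of 20 alternatives. In BAT-Mcu-KO animals the log2 fold change by cold was 0.26 (limma, SE 0.27, adjusted p = 0.477), and the interaction was -0.45 (95% interval -1.27 to 0.37, limma, adjusted p = 0.894). By genotype it was 0.30 at RT (-0.27 to 0.87, limma, adjusted p = 0.993) and -0.15 at 4°C (-0.74 to 0.45, limma, adjusted p = 0.953).

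Erbb4 encodes the receptor of neuregulin 4 and betacellulin. Its normalized count was 38.8 to 148 (median 71.2) among control mice at RT, and 80.9, 57.7, 46.05, 53.6 and 35.3 in control mice 1 to 5 at 4°C. In BAT-Mcu-KO animals it was 48.4 to 107 (median 71.6) at RT and 29.2 to 46.01 (median 38.3) at 4°C. All 6 BAT-Mcu-KO animals at 4°C were below all 6 at RT, whereas the control groups overlapped.

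In BAT-Mcu-KO animals Erbb4 fell at 4°C from 75.3 ± 20.1 to 37.8 ± 6.37 (SD, n = 6 each), a log2 fold change of -0.95 (limma, SE 0.25, adjusted p = 0.0031). The call was kept under each of 22 alternatives, with log2 fold changes of -1.22 to -0.81. In this comparison 11.9% of all genes were lower without overlap. In control mice the means were 82.7 ± 38.5 (SD, n = 6) and 54.7 ± 16.9 (SD, n = 5), with a log2 fold change of -0.52 (limma, SE 0.26, adjusted p = 0.110), and a fall was called without control mouse 2 at RT (-0.71, adjusted p = 0.0215) or control mouse 1 at 4°C (-0.67, adjusted p = 0.0457) and with DESeq2 on the recovered reads (-0.62, adjusted p = 0.0482). The interaction was -0.43 (95% interval -1.18 to 0.31, limma, adjusted p = 0.887), and a difference between the genotypes in this response was not shown. By genotype the log2 fold change was -0.05 at RT (-0.57 to 0.46, limma, adjusted p = 0.999) and -0.49 at 4°C (-1.03 to 0.05, limma, adjusted p = 0.737).

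By genotype, 0 of the 6 members were called at RT, where limma called 0.0478% of all genes, and 0 of the 5 members other than Btc were called at 4°C, where it called 0.0751%. Before adjustment 754 and 1023 genes had a p under 0.05 in these comparisons, and none of the tested members was among them. edgeR and DESeq2 on the recovered reads also called 0 of these members. By cold in control mice 3 of the 5 members other than Btc were called, all higher (Hbegf, Egfr and Erbb2), against 46.0% of all genes called, 22.3% higher and 23.7% lower. By cold in BAT-Mcu-KO animals 2 of 5 were called, Nrg4 higher and Erbb4 lower, against 43.3% of all genes, 21.4% higher and 21.9% lower. The share of members called by cold is thus near that of all genes. For the interaction limma called 0 of 14651 genes and 878 before adjustment at a p under 0.05, edgeR called 0 and DESeq2 28.

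**Figure D3:**
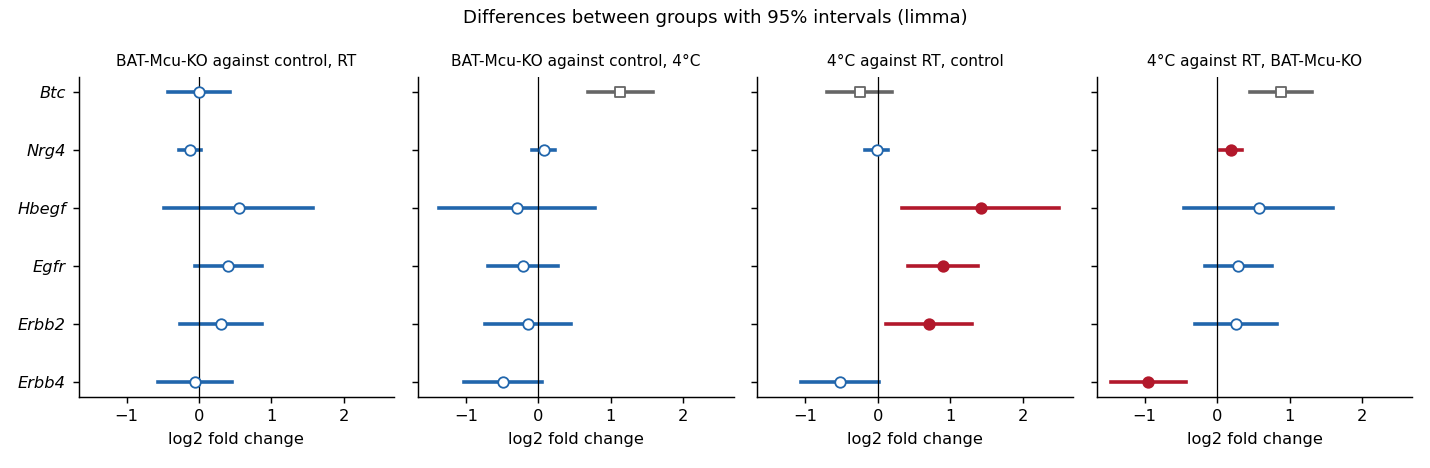
Log2 fold change (horizontal axis) of the 6 genes in the 4 comparisons, with the limma estimate as a point and its 95% interval as a line. Filled red circles passed an adjusted p of 0.05, open blue circles did not, and grey squares are the values of Btc that were not tested; the called members are Hbegf, Egfr and Erbb2 by cold in control mice and Nrg4 and Erbb4 by cold in BAT-Mcu-KO animals.

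Some markers of other cell types in BAT were also called by cold. Of 5 endothelial markers, 2 (Pecam1 and Kdr) were called higher and 1 (Tie1) lower at 4°C in each genotype. Their summed normalized count was 2967 to 4345 at RT and 4925 to 7717 at 4°C in control mice, and 3221 to 4423 and 4539 to 6422 in BAT-Mcu-KO animals. Of 5 markers of fibroblasts and adipocyte progenitors 0 were called in control mice and 1 higher (Dcn) in BAT-Mcu-KO animals, of 5 of macrophages and leukocytes 0 and 2 (Cd68 and Lyz2, higher). Of 5 of Schwann cells and nerve 0 and 1 (Mbp, lower) were called, and of 5 of pericytes and smooth muscle 1 higher and 2 lower in control mice and 2 higher and 1 lower in BAT-Mcu-KO animals. Of the 6 brown adipocyte markers 3 were higher and 3 lower in control mice and 2 higher and 1 lower in BAT-Mcu-KO animals, and of 2 white adipocyte markers 2 and 1 were lower. The part of these changes in the values of Egfr, Erbb2, Hbegf and Erbb4 was not tested. By genotype 0 of the 39 markers were called at either temperature, and 0 of 6 skeletal muscle markers by cold. Some muscle markers were at 0 in single mice of each group. At RT the 6 muscle markers had log2 fold changes by genotype of 1.65 to 2.05 (SE 1.45 to 2.30). The median of their summed normalized count was 1505 in control mice and 16647 in BAT-Mcu-KO animals at RT. With this spread the lack of a call does not show that muscle content was equal between the genotypes.

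Around the receptors, 69 of 81 listed genes were in the table. The lists were chosen with earlier results of these data known. Their counts and medians are therefore a description and no support for a response of the pathway. Limma called 42 of the 69 by cold in control mice (60.9%), 32 higher and 10 lower, and 40 in BAT-Mcu-KO animals (58.0%), 30 higher and 10 lower. The median log2 fold change of the 69 genes was 0.33 in control and 0.32 in BAT-Mcu-KO animals, against -0.02 and -0.02 over all genes, of which 46.0% and 43.3% were called. With only the 9531 genes averaging at least 50 normalized counts tested, limma called 5422 by cold in control and 5070 in BAT-Mcu-KO animals. Of these called genes 52.7% and 53.4% were higher. Well-detected genes were thus called more often than all genes, and the 69 were not compared with genes of like level. Values after ± are SDs over the mice of a group. In both genotypes 34 of the genes were called, 28 of them higher and 6 lower in each, against 34.8% of all genes called in both, 17.3% higher and 17.5% lower. By genotype 1 of 69 was called at RT and 0 at 4°C, and 0 in the interaction.

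Of the other ligands and receptors, the table held Egf and Erbb3. Egf fell by cold in control mice (log2 fold change -0.94, SE 0.37, limma, adjusted p = 0.0384) and had -0.70 in BAT-Mcu-KO animals (SE 0.35, adjusted p = 0.110). Erbb3, the receptor with a weak kinase, fell in BAT-Mcu-KO animals from 78.05 ± 13.1 to 37.7 ± 12.03 (SD, n = 6 each), a log2 fold change of -1.07 (limma, SE 0.20, adjusted p = 0.0001), and had -0.49 in control mice (SE 0.21, adjusted p = 0.0608). The means in control mice were 52.8 ± 7.39 at RT and 38.4 ± 12.4 at 4°C. By genotype Erbb3 had 0.55 at RT (limma, SE 0.20, adjusted p = 0.940) and -0.03 at 4°C (limma, SE 0.21, adjusted p = 0.992). Limma thus called Erbb3 and Erbb4 lower in BAT-Mcu-KO animals and not in control mice, but for neither was the difference shown, with an interaction of -0.58 for Erbb3 (limma, adjusted p = 0.841). Tgfa, Areg, Ereg, Epgn, Nrg1, Nrg2 and Nrg3 were not analysed here.

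Of 9 genes of ligand release, 3 were called by cold in control mice (33.3%) and 4 in BAT-Mcu-KO animals (44.4%). Over all genes 46.0% and 43.3% were called, so this list was below or near that share. The genes named as changed are among its called members. The proteases Adam12 and Adam17, of which ADAM17 is the main sheddase of several EGFR ligands, rose in both genotypes. Adam12 went from 263 ± 37.9 to 1606 ± 257 in control mice (log2 fold change 2.61, SE 0.12, limma, adjusted p = 3.9e-14) and had 2.52 in BAT-Mcu-KO animals. Adam17 had 1.07 (limma, SE 0.12, adjusted p = 1.1e-07) and 1.13. Bace1, a protease that also cleaves neuregulins, fell in both (-0.83 and -1.13). Adam10 was called in neither genotype. It had 391 ± 64.9 at RT and 422 ± 47.2 at 4°C in control mice, and 398 ± 72.8 and 408 ± 23.8 in BAT-Mcu-KO animals.

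Of 10 adaptors and exchange factors, 5 and 6 were called in control and BAT-Mcu-KO animals. Gab2 (1.49 and 1.60), Crk (0.80 and 0.69) and Nck1 (0.53 in each) rose at 4°C, while Gab1, a docking protein of EGFR, fell (-1.29 and -1.50, largest adjusted p = 7.2e-09, limma). Of 10 genes of the RAS to ERK cascade 6 and 3 were called (60.0% and 30.0%). Of 6 genes of PI3K and AKT 5 and 4 were called (83.3% and 66.7%). Pik3r1, the main regulatory subunit of PI3K, fell from 1096 ± 262 to 205 ± 18.4 in control mice and from 1026 ± 171 to 192 ± 30.3 in BAT-Mcu-KO animals (log2 fold changes -2.38 and -2.41, largest adjusted p = 2.0e-12, limma). Akt2 fell as well (-1.33 and -1.24), as did Pik3r2 (-1.16 and -0.98), whereas the catalytic subunit Pik3ca rose (0.52 and 0.43).

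Of 16 receptor inhibitors and genes of receptor turnover, 10 were called in control mice, 9 of them higher, and 11 in BAT-Mcu-KO animals, 10 of them higher. These are 62.5% and 68.8% of the list, against 46.0% and 43.3% of all genes, and here too genes of like level were not compared. Errfi1, which encodes the EGFR inhibitor MIG6, went from 238 ± 81.1 to 1478 ± 931 in control mice and from 287 ± 93.1 to 2634 ± 1430 in BAT-Mcu-KO animals (SD; n = 6, 5, 6 and 6). Its log2 fold changes were 2.52 (limma, SE 0.34, adjusted p = 1.4e-06) and 3.09 (limma, SE 0.33, adjusted p = 2.8e-08). Socs4 (1.58 and 1.22), Cblb (1.46 and 1.23), which encodes a ubiquitin ligase, and Stam (1.13 and 1.15) rose as well. Lrig1, a receptor inhibitor at the membrane, fell (-1.06 and -1.41).

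Of 16 targets and feedback genes of MAPK signalling, 12 were called in control mice, 10 of them higher, and 11 in BAT-Mcu-KO animals, 10 of them higher. Dusp6, a phosphatase of ERK, went from 354 ± 174 to 2411 ± 297 in control mice and from 261 ± 86.9 to 2022 ± 108 in BAT-Mcu-KO animals, log2 fold changes of 2.90 and 3.01 (SE 0.24 and 0.23, largest adjusted p = 4.4e-10, limma). Spry4 (2.97 and 2.61) and Spred2 (1.62 and 1.65), inhibitors of the path to ERK, rose as well. By cold 2 genes of this list were called lower in control mice and 1 in BAT-Mcu-KO animals. Egr1, an immediate early gene, was among those lower in control mice. It was the gene of these lists called by genotype at RT, with 83.9 to 1148 normalized counts in control and 33.7 to 102 in BAT-Mcu-KO animals (log2 fold change -2.65, SE 0.42, limma, adjusted p = 0.0064). It fell by cold in control mice (-2.10, limma, adjusted p = 0.0004) and had 0.52 in BAT-Mcu-KO animals (adjusted p = 0.339), with an interaction of 2.62 (limma, adjusted p = 0.700). With the mice at RT alone in the fit, 0 of the 69 genes were called by genotype at RT.

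**Figure D4:**
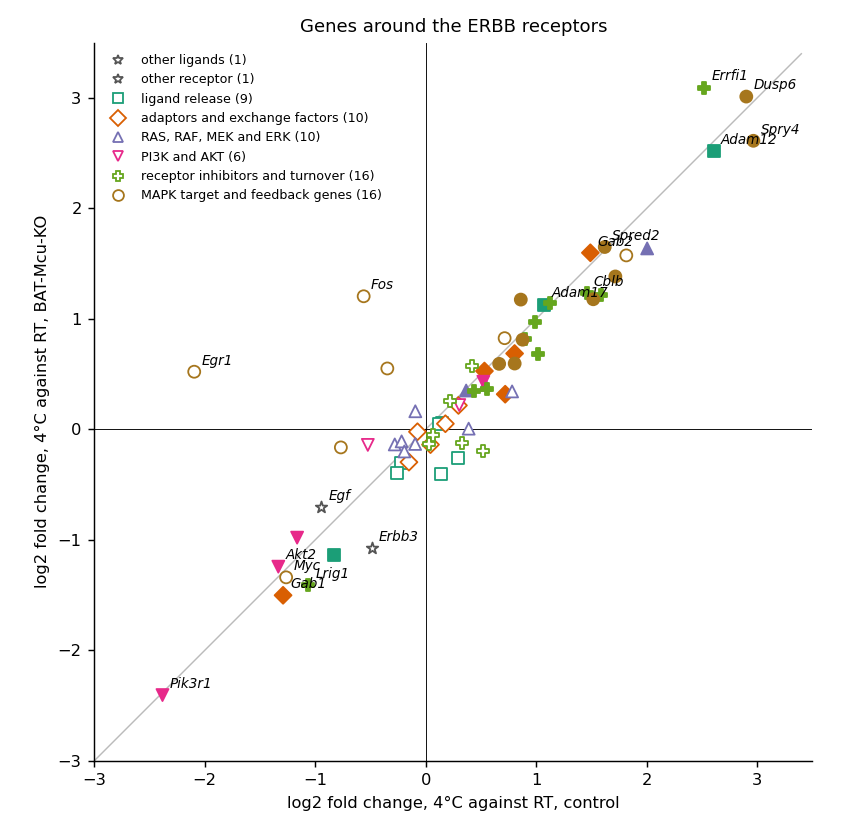
Log2 fold change by cold in control mice (horizontal axis) against that in BAT-Mcu-KO animals (vertical axis) for the 69 genes around the receptors, with 1 symbol per gene, a shape and colour per list, filled where the gene was called in both genotypes. The 34 filled symbols lie in the upper right (28) or lower left (6), near the grey line of equal change, and Egr1 lies in the upper left.

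The genes whose log2 levels followed each member most closely over the 23 mice were found among 9531 genes whose mean normalized count was 50 or more. They are given as a description, since the mice of a group share genotype and temperature and each mouse is 1 library. Taking the highest r among 9531 genes also raises the values. For Btc they were Cat (Pearson r 0.765), which encodes catalase, Ehhadh (0.757), an enzyme of peroxisomal beta-oxidation, and Kdm3a (0.746), a histone demethylase. With the group means removed, r was 0.450, 0.506 and 0.721. For Egfr they were Cblb (0.796), Mkrn1 (0.795) and Dnttip2 (0.791), with r of 0.732, 0.777 and 0.673 within groups, and Cblb encodes a ubiquitin ligase that acts on EGFR. For Erbb4 they were Raph1 (0.826), Agap1 (0.807) and Kat2b (0.803), with r of 0.712, 0.609 and 0.595 within groups. For Nrg4 they were Myo9b, E2f4 and Trappc2 (r of 0.703, 0.694 and 0.668), for Hbegf Zfp30, Jtb and Exosc1 (0.792, 0.743 and 0.729), and for Erbb2 Sympk, Polg and Ccdc85b (0.768, 0.753 and 0.746). The values for Hbegf include control mouse 5 at RT, which had 0 reads, and were not found without it. Among the members themselves r ranged from -0.38 (Hbegf and Erbb4) to 0.36 (Hbegf and Egfr). Btc had r of 0.15 with Egfr and -0.36 with Erbb4, its receptors, and 0.13 and 0.11 with the group means removed.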

How the data were processed

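Libraries were made by Smart-seq2 and read as paired ends. The authors aligned the reads to mm10 (GENCODE M7) with STAR 2.4.0j, counted uniquely mapped exonic reads with HTSeq irrespective of strand, kept genes that reached 8 reads in 6 or more samples and deposited the signal used here, reads divided by the DESeq2 size factor of the sample. A second deposited table, of the authors' own comparisons (fold changes and p-values), was not used. No per-sample column was left out (0 unused), and 19 symbols turned into dates are not named.

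In each sample 100% of values under 1000 reads were whole multiples of 1 read (tolerance 0.01 reads), so reads were recovered. Depth was 7129271 to 21006347 reads. PCR copies were not told apart, so floors cover counting error only. Pairs of mice within a group differed beyond counting error (chi-square per degree of freedom 8.59 to 61.8 over 55 pairs).

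Groups came from the labels. Differences were tested with limma (version 3.58.1, R 4.3.3) on log2(normalized count + 1), with 4 group means, all 23 samples and a variance trend. The added 1 shrinks ratios of low counts, but on the log scale a mouse at 0 can also widen a change. For Hbegf by cold in control mice limma gave 2.67-fold, against a ratio of group means of 2.07. A gene was called at a Benjamini-Hochberg adjusted p under 0.05 over 14651 genes. On recovered reads edgeR (4.0.16) called 7, 6, 6780 and 6501 genes and DESeq2 (1.42.0) 20, 23, 6875 and 6618 by genotype at RT and at 4°C and by cold in control and then BAT-Mcu-KO mice. Other alternatives were pseudocounts of 0.5 and 10, a mean of 50 or more, 75th percentile scaling, no trend, the compared groups alone, a replicate block, each mouse left out and, added after seeing the data, the 5 mice with over 20000 muscle marker counts left out. The tests were tried on simulated data.

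The members, gene lists and markers were chosen with earlier results of these data known. All 6 members were named, with list genes of smallest adjusted p in each direction, other called genes (some are not reported here), and for each member the 3 genes of highest Pearson r. Erbin and Erbb2ip are 1 gene under 2 symbols. Gene positions came from GENCODE M21, promoters from RefSeq (GRCm38.p6). Tables were handled with pandas 2.3.3 in Python 3.11.15, and figures with matplotlib 3.10.9.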

Additional observations from a re-analysis of the deposited data

How the results depend on the processing

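Btc was tested by genotype at RT alone, and the counts for the other comparisons are over the 5 other members. By genotype 0 of 6 members at RT and 0 of 5 at 4°C were called under each alternative tried. By cold in control mice the 3 called of 5 became 1 with a mean of 50 or more (Hbegf and Erbb2 are then not tested), 1 with the compared groups alone, 1 without the 5 mice with muscle transcripts and 1 to 4 without single mice. By cold in BAT-Mcu-KO mice the 2 called of 5 became 1 with 75th percentile scaling, without the variance trend and without the 5 mice, and 1 to 2 without single mice. Of the 69 pathway genes, the 1 called by genotype at RT became 0 with the compared groups alone, 2 with DESeq2 and 1 to 2 without single mice, and the 0 of the interaction became 1 with DESeq2. By cold 35 to 45 were called in control and 32 to 42 in BAT-Mcu-KO mice.

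Signs turned for small differences. Without single mice the genotype difference at RT was -0.095 to 0.092 for Btc, -0.025 to 0.890 for Hbegf and -0.243 to 0.138 for Erbb4, and the cold difference of Nrg4 in control mice was -0.052 to 0.047. Without the 5 mice these were 0.107 for Btc, 0.220 for Erbb4 and 0.017 for Nrg4, and Erbb2 had 0.095 by genotype at 4°C and -0.040 by cold in BAT-Mcu-KO mice. The cause was not tested.

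Over all genes, the 7 called by genotype at RT became 3 with the compared groups alone and 20 with DESeq2, and the 11 at 4°C became 7 without the trend, 2 with the compared groups alone, 6 with edgeR, 23 with DESeq2, 2 without the 5 mice and 3, 7 and 6 without control mouse 2, control mouse 5 and BAT-Mcu-KO mouse 4 at 4°C. Without any other single mouse it was 8 to 16. With 75th percentile scaling the median log2 fold change by cold in control mice moved from -0.02 to -0.13, and 38.2% of called genes were higher in place of 48.5%.

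Mice that share a replicate number are different animals, and the number did not pair them (mean r of deviations 0.12 by genotype at 4°C, over 0.1 in 2 of 5 pairs). Taking the number as a block, limma called 7 genes at RT and 7 at 4°C, Erbb2 by cold in control mice was no longer called (0.61, adjusted p = 0.0876, limma) and no other call of a member was lost. Depth limits Hbegf and Erbb2 most, at 0 to 29 and 11 to 80 reads per mouse.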
